A study of Mus musculus with 1920 samples.

Results

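Regional identity genes are genes whose expression differs along the length of the gut, and 10 of them were described here in single intestinal stem cells (ISCs) of the mouse: Gata4, Gata6, Cdx1, Cdx2, Onecut2, Hoxb5, Hoxb6, Hoxb7, Gkn3 and Aqp4. They were chosen by name, out of 55471 genes in the count table, and all 10 passed the filter on low counts that left 20957 genes for testing. The cells were Lgr5 high-ISCs of 3 young and 4 aged mice that all carried B6.129P2-Lgr5tm1(cre/ERT2)Cle/J, a knock-in of EGFP and a tamoxifen-inducible Cre into Lgr5, so young and aged animals shared the altered locus. The labels give the ages as young and old without a number, and the methods describe crypts from small-intestine pieces with no record of the region that each cell came from. Every cell was read as its own library, and the 1836 cells that showed 1000 or more genes were used here, with 84 left out. A gene counted as detected, and the cell as positive, when the cell held at least 1 read of it. The mouse is the replicate throughout (n = 3 young and 4 aged).

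The intestine is patterned from front to back by transcription factors that are set up in the embryo and kept in the adult stem cells. Gata4, a zinc finger factor, marks the proximal and middle small intestine and is low in the terminal ileum, while its relative Gata6 is found along the whole length. Cdx1 and Cdx2 are caudal-type homeobox factors that define the intestinal epithelium as a whole. Onecut2 is a homeobox factor of the foregut and proximal intestine, and the Hox genes, which lie in clusters, are read out along the body axis in the order in which they sit on the chromosome, with the more posterior members in more distal gut. Gkn3 encodes a secreted gastrokine and Aqp4 a water channel, and both are known as genes of Lgr5-positive stem cells.

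The Hoxb genes are paralogs, and stretches that they share decide how well their reads can be counted separately. Over whole transcripts the longest identical run was 37 bases between Hoxb6 and Hoxb7 and 23 bases for each of the other pairs. The longest run was 18 bases between Gata4 and Gata6 and 16 bases between Cdx1 and Cdx2.

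The genes lie, in GRCm38, on 5 chromosomes. Gata4 is at chr14:63198922-63271692 on the minus strand, Cdx2 at chr5:147300805-147307270 on the minus strand and Gkn3 at chr6:87383256-87388935 on the minus strand. Gata6 at chr18:11052064-11085635 (plus strand), Aqp4 at chr18:15389496-15410982 (minus strand), Cdx1 at chr18:61018862-61036199 (minus strand) and Onecut2 at chr18:64340020-64400987 (plus strand) share a chromosome. The 3 Hoxb genes are neighbours on the plus strand, Hoxb7 at chr11:96286623-96290162, Hoxb6 at chr11:96292476-96301569 and Hoxb5 at chr11:96303336-96306121. The antisense gene Hoxb5os runs through Hoxb6 and Hoxb5 on the other strand and shares 100 exonic bases with Hoxb5 (3.59% of its exons) and 0 with Hoxb6. Gata6 shares 93 exonic bases (1.43%) with the opposite-strand transcript 1010001N08Rik. Whether the reads were counted by strand is not given in the sources used here, so reads from these shared bases cannot be told apart between partners.

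The depth of the cells was high. The median kept cell had 305492 reads assigned to genes, with 9398.5 genes detected, and the median per mouse ran from 211789.5 to 344567.5 reads. The sorted gene Lgr5 was detected in 96.9% of kept cells, between 93.1% and 99.5% by mouse, and the epithelial gene Epcam in 99.7%, while the leukocyte gene Ptprc was at 1.25% and the fibroblast gene Col1a1 at 0.327%. The endothelial gene Pecam1 was higher, at 6.32% of kept cells, and ran from 1.06% to 12.2% by mouse. Cells whose highest marker score was that of the ISC list made up 86.3% to 93.5% of kept cells in the young mice and 73.5%, 75.8%, 77.8% and 90.5% in the aged mice. The share was thus lower than in any young mouse in 3 of 4 aged mice. Of 12 genes chosen as genes of other tissues, the highest was Gfap at 2.07% of kept cells, and 11 were below 1%. These genes were read in few cells of any mouse, so their shares set no level for reads carried over from wells rich in a gene. Such reads were not measured.

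Cdx1, Aqp4, Gata6 and Cdx2 were detected in nearly every ISC. Over all kept cells the share of positive cells was 97.6% for Cdx1, 95.7% for Aqp4, 90.0% for Gata6 and 89.4% for Cdx2. Gkn3 followed with 81.5%, Gata4 with 70.6% and Onecut2 with 68.8%. Hoxb6 was detected in 18.4%, Hoxb5 in 18.3% and Hoxb7 in 17.4%, against 2.07% for Gfap. When every cell was thinned to 100000 reads, which left 1732 cells and dropped 104 that were too shallow, the shares were 97.8% for Cdx1, 67.7% for Gata4 and between 14.5% and 15.9% for the Hoxb genes. In positive cells the median number of reads was 79 for Aqp4, 58 for Gkn3, 37 for Cdx1, 33 for Onecut2, 17 for Gata6, 16 for both Gata4 and Cdx2, 11 for Hoxb7, 6 for Hoxb5 and 5.5 for Hoxb6.

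The order of the genes changed when levels were taken per length of exon, as reads per kilobase scaled to the library total (RPKM). On that scale the mean level over the 7 mice was 329 ± 137 (SD) for Gkn3, 101 ± 18.1 for Cdx1, 44.8 ± 6.98 for Aqp4 and 27.1 ± 3.43 for Cdx2. Gata4 was at 12.9 ± 2.52 RPKM, Gata6 at 9.28 ± 0.870, Hoxb7 at 6.82 ± 3.78, Onecut2 at 4.88 ± 1.58, Hoxb6 at 2.98 ± 1.61 and Hoxb5 at 2.04 ± 1.02. Onecut2 stands low in this order although it held many reads, because its annotated exons span 16234 bases against 856 for Gkn3. The ranges over mice did not overlap between Cdx1 and Aqp4, Aqp4 and Cdx2, or Cdx2 and Gata4, and the higher gene was higher in 7 of 7 mice in each case. Gata4 was above Gata6 in 7 of 7 mice with overlapping ranges. The neighbours Gata6 and Hoxb7, and Hoxb7 and Onecut2, did not differ beyond their spread, since the order held in only 4 of 7 mice for each.

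In percentage points the shares of the mice differed most for Onecut2, Gata4 and Gkn3, with an SD over 7 mice of 13.5, 12.6 and 11.2. As a ratio of the highest to the lowest share they differed most for Hoxb6, Hoxb7 and Hoxb5, at 4.17, 3.06 and 2.29. Gata4 was detected in 59.4%, 66.8% and 74.7% of cells in young mice 1 to 3 and in 46.6%, 72.6%, 81.5% and 81.1% in aged mice 1 to 4. Aged mouse 1 was the lowest of all 7 animals and aged mice 3 and 4 the highest, so the young mice lay inside the range of the aged. The 95% Clopper-Pearson interval, which covers counting error only, was 39.3% to 53.9% in aged mouse 1 and 75.2% to 86.7% in aged mouse 3.

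Onecut2 was likewise lowest in aged mouse 1 and highest in aged mice 3 and 4. It was detected in 61.9%, 62.7% and 71.5% of cells in the young mice and in 41.8%, 72.6%, 78.3% and 82.5% in the aged mice. Gkn3 was at 80.0%, 81.6% and 81.9% in the young mice and at 56.1%, 83.9%, 86.8% and 90.7% in the aged mice. For Gkn3 the 3 young mice lay within 2 percentage points of one another, and aged mouse 1 was again the lowest of all.

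The Hoxb genes were ordered the other way. Hoxb5 was detected in 20.6%, 24.1% and 17.3% of cells in the young mice and in 25.4%, 19.4%, 11.1% and 12.0% in the aged mice. Hoxb6 was at 20.6%, 24.1% and 18.9% in the young mice and at 26.5%, 23.7%, 6.35% and 10.7% in the aged mice. Hoxb7 was at 16.2%, 22.4% and 17.0% in the young mice and at 25.9%, 23.7%, 8.47% and 10.1% in the aged mice. Aged mouse 1 had the highest share of each Hoxb gene, and aged mice 3 and 4 the lowest shares.

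**Figure D1:**
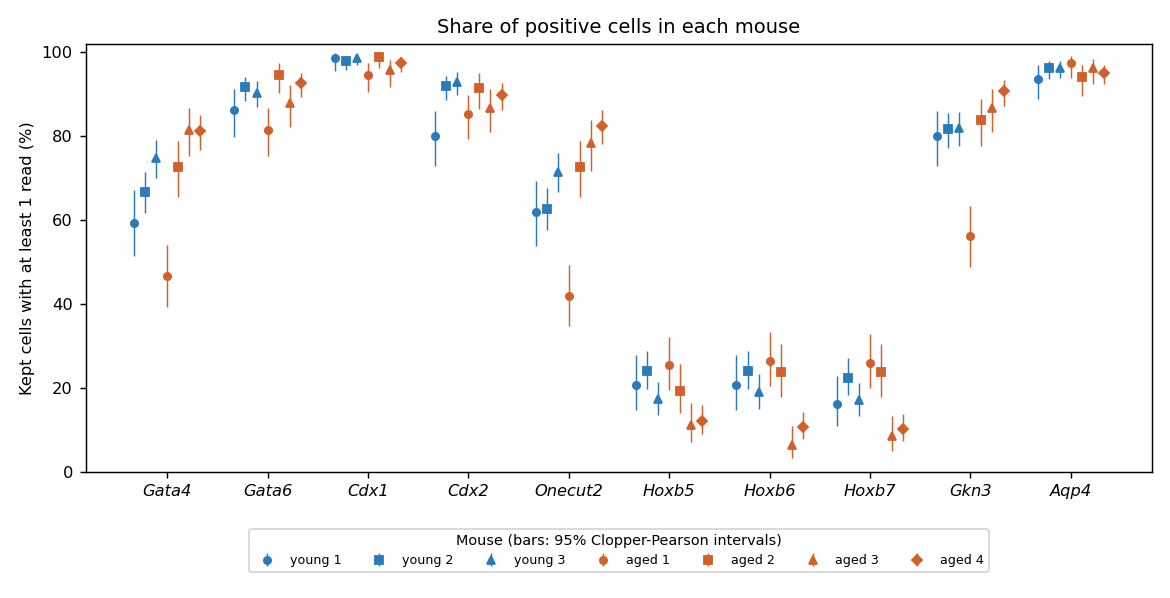
Share of kept cells with at least 1 read of each gene (vertical axis, %), by gene (horizontal axis). Each point is 1 mouse, young in blue and aged in orange, with its 95% Clopper-Pearson interval. Gata4, Onecut2 and Gkn3 are lowest in aged mouse 1 (46.6%, 41.8% and 56.1%), where the Hoxb genes are highest.

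The remaining genes had narrower ranges. Cdx1 lay between 94.7% (aged mouse 1) and 98.9% (aged mouse 2), and Aqp4 from 93.8% in young mouse 1 to 97.4% in aged mouse 1. Gata6 lay between 81.5% (aged mouse 1) and 94.6% (aged mouse 2), and Cdx2 from 80.0% in young mouse 1 to 92.8% in young mouse 3. The SD over the 7 mice was 4.51 times the SD that counting cells alone would give for Onecut2, 4.34 times for Gkn3 and 4.22 times for Gata4. It was 2.16 to 2.94 times that value for the Hoxb genes, 2.15 for Gata6, 2.11 for Cdx2, 1.55 for Cdx1 and 0.961 for Aqp4. Cells of young mouse 2 carried 2 different LR codes in their titles. Each code is shared by 384 cells, which is the number the methods give both for a sequencing lane and for a sort plate, and it is called a lane here by inference. In these lanes its share of Gata4-positive cells was 66.8% and 66.7%, of Onecut2-positive cells 64.7% and 60.8%, of Hoxb6-positive cells 23.4% and 24.7%, while that of Gkn3-positive cells was 79.3% and 83.9%. For Gkn3 the lanes of 1 mouse were thus further apart than the 3 young mice were. Within the 3 lanes that held both ages, the difference in share, aged minus young, was -20.3, 22.1 and 5.91 percentage points for Gata4, -22.9, 16.4 and 11.8 for Onecut2, -23.3, 6.77 and 0 for Gkn3 and 3.09, -14.3 and -1.08 for Hoxb6, so the direction was not the same in every lane. Each of these lanes set 1 aged mouse against 1 young mouse, and young mouse 2 was the young side for both aged mouse 1 and aged mouse 2.

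None of the 10 genes passed the test between aged and young ISCs. In edgeR's quasi-likelihood test on counts summed per mouse, 0 of the 10 had an adjusted p under 0.05, as did 0 of all 20957 genes tested (0%). At an unadjusted p under 0.05 the members counted 0 of 10 against 1098 genes overall (5.24%). DESeq2 called 177 genes overall and limma voom 2, and none of the 10 was among either. The median log2 fold change, aged over young, was -0.05 over the 10 members and 0.01 over all genes tested. Fewer cells that express a gene and less of its RNA per cell cannot be told apart in such sums.

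The largest fold changes were those of Hoxb5 and Gkn3, and both stayed within the spread. The log2 fold change of Gkn3 was -0.68 with a standard error of 0.43 in edgeR (unadjusted p = 0.150, adjusted p = 1), with 365 ± 73.0 reads scaled to the library total (CPM, mean ± SD) in the young mice and 219 ± 108 in the aged. By mouse the level was 415, 281 and 398 CPM in the young and 67.5, 214, 300 and 295 CPM in the aged. Without aged mouse 1 the log2 fold change of Gkn3 was -0.38. For Hoxb5 it was -0.68 with a standard error of 0.51 (edgeR unadjusted p = 0.215, adjusted p = 1), from 7.33 ± 2.19 CPM in the young to 4.44 ± 2.85 in the aged mice, and -1.12 without aged mouse 1 and -0.37 without aged mouse 3.

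The log2 fold changes of the other members lay closer to 0, from -0.23 for Hoxb7 to 0.24 for Aqp4. Cdx2 was at -0.18 ± 0.15 (standard error), Gata4 at 0.05 ± 0.24, Gata6 at -0.04 ± 0.15, Cdx1 at 0.06 ± 0.20, Onecut2 at -0.04 ± 0.35 and Hoxb6 at -0.06 ± 0.58. Gata4 stood at 51.8, 46.1 and 53.3 CPM in the young mice and 32.8, 46.4, 58.1 and 63.2 CPM in the aged mice. Aqp4 stood at 227, 275 and 275 CPM in the young and 261, 320, 245 and 353 CPM in the aged mice. Hoxb7, the most uneven, stood at 15.3, 11.3 and 8.28 CPM in the young and 13.9, 18.0, 1.43 and 5.48 CPM in the aged mice. In CPM the aged and young mice overlapped for 10 of 10 genes.

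No share of positive cells passed its test between the ages either. The mean share of Gata4-positive cells was 67.0% ± 7.68 (SD) in young and 70.4% ± 16.4 in aged mice, a difference of 3.49 percentage points (exact two-sided permutation test, p = 0.83). For Onecut2 the means were 65.4% ± 5.36 and 68.8% ± 18.5 (exact permutation p = 0.8), and for Gkn3 81.2% ± 1.03 and 79.4% ± 15.8 (exact permutation p = 1). For Hoxb6 they were 21.2% ± 2.63 and 16.8% ± 9.78 (exact permutation p = 0.429), for Hoxb5 20.7% ± 3.38 and 17.0% ± 6.72 (exact permutation p = 0.457) and for Hoxb7 18.6% ± 3.37 and 17.0% ± 9.02 (exact permutation p = 0.83). The lowest p among the 10 genes was that of Cdx1, at 98.4% ± 0.505 in young and 96.7% ± 1.87 in aged mice (exact permutation p = 0.257). The smallest p that 3 against 4 mice can give is 0.0286. Shares of aged and young mice overlapped for 10 of 10 genes, where 5.09% of all genes tested showed no overlap. The SD was larger in the aged than in the young mice for 8 of the 10 genes, Cdx2 and Aqp4 excepted, and this difference in spread was not tested. The same count over all genes was not taken, and genes that go together from cell to cell are not separate observations. Kept cells, which set the counting error, numbered 160, 370 and 376 in the young and 189, 186, 189 and 366 in the aged mice.

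Within a mouse, Gata4 and the Hoxb genes were rarely found in the same cell. Hoxb5 was detected in 5.86% of Gata4-positive and 48.2% of Gata4-negative cells, Hoxb6 in 4.70% and 51.4%, and Hoxb7 in 5.40% and 46.2%. Hoxb6 ranged by mouse from 1.95% to 9.63% in Gata4-positive cells and from 25.7% to 64.2% in Gata4-negative cells, so the ranges did not overlap. Because a deeply read cell shows more genes of every kind, the odds ratio of finding both genes together was taken within 5 bands of detected genes in each mouse (Mantel-Haenszel). An odds ratio of 1 means that a gene is found as often with the other as without it. The median over the 7 mice was 0.0266 for Gata4 with Hoxb6, 0.0324 for Gata4 with Hoxb5 and 0.0499 for Gata4 with Hoxb7. For Gata4 with Hoxb6 the lowest value was 0.0177 (aged mouse 1) and the highest 0.0593 (aged mouse 2).

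Onecut2 and Gkn3 also seldom shared a cell with the Hoxb genes. The median odds ratio was 0.0856 for Onecut2 with Hoxb5, 0.0761 with Hoxb6 and 0.0716 with Hoxb7. For Gkn3 it was 0.191 with Hoxb5, 0.265 with Hoxb6 and 0.224 with Hoxb7. Of the 45 pairs of members, 9 were below 1 in 7 of 7 mice, and these were the 9 pairs that join Gata4, Onecut2 or Gkn3 to Hoxb5, Hoxb6 or Hoxb7. By detection Gkn3 was less divided than Gata4, since 54.1% of Hoxb6-positive cells still held Gkn3 reads against 87.7% of Hoxb6-negative cells. By level the ratios of the means were alike. The mean Gkn3 CPM in cells with any of Hoxb5 to Hoxb7 was 0.252 times that in cells with none. The ratio was 0.234 for Gata4 and 0.24 for Onecut2. The ranges over mice, with and without a Hoxb gene, did not overlap for Gata4 (2.79 to 42.8 and 46.6 to 75.7 CPM). They overlapped for Gkn3 (12.1 to 217 and 93.0 to 540 CPM) and for Onecut2 (2.08 to 56.2 and 50.0 to 134 CPM). Each gene was lower beside a Hoxb gene in 7 of 7 mice.

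Gata4, Onecut2 and Gkn3 accompanied one another. Onecut2 was detected in 88.9% of Gata4-positive cells and 20.6% of Gata4-negative cells, and Gkn3 in 93.2% and 53.2%. The median odds ratio was 21.1 for Gata4 with Onecut2 (lowest 8.08, highest 23.4), 9.50 for Gata4 with Gkn3 and 8.42 for Onecut2 with Gkn3. All 3 genes were found together in 1108 cells, 60.3% of those kept. The Hoxb genes formed the other set: 73.5% of Hoxb5-positive cells held Hoxb6 and 66.7% held Hoxb7, with median odds ratios of 36.5 for Hoxb5 with Hoxb6, 25.5 for Hoxb5 with Hoxb7 and 42.8 for Hoxb6 with Hoxb7.

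In all, 10 pairs were above 1 in 7 of 7 mice, where an odds ratio with no finite value was counted as above 1. Besides the 6 pairs within the sets just named they were Cdx1 with Cdx2, Gata6 with Cdx2, and Cdx1 with Hoxb6 and with Hoxb7. Cdx1 was above 1 in 7 of 7 mice with 22.4% of all genes read against it, at a median odds ratio of 6.63, and Cdx2 with 6.76%, and nothing particular to the members is read from the pairs with Cdx1. After thinning to 100000 reads, the 6 pairs within the sets were the ones above 1 in 7 of 7 mice, and the 9 pairs across them were again the ones below 1. Against the 15637 other genes detected in 5% to 95% of kept cells, the median odds ratio of Gata4 was 1.17, 9.04% of genes were above 1 in every mouse and 2.55% below. For Hoxb6 the median was 1.05, with 5.83% above and 3.01% below. The cells of 1 mouse share a library preparation, and the odds ratios are given as a description.

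**Figure D2:**
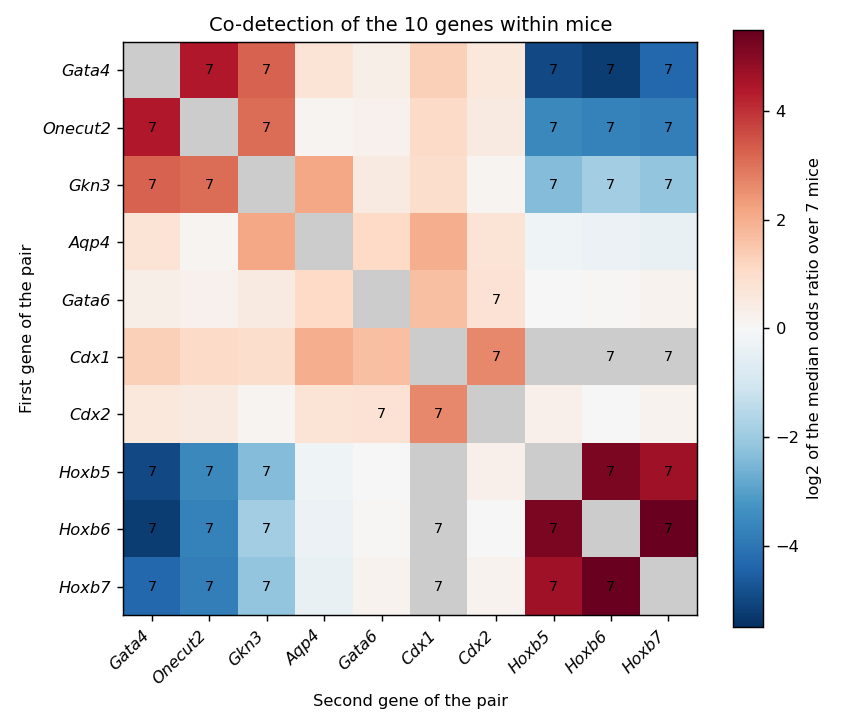
Odds ratio of detection for each pair of the 10 genes, as log2 of the median over 7 mice (colour), with the genes on both axes. A 7 marks pairs on the same side of 1 in 7 mice, and grey squares off the diagonal are pairs with Cdx1 whose median has no finite value. Gata4, Onecut2 and Gkn3 form 1 block (red), the Hoxb genes another, and the 9 pairs between the blocks are blue.

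By detection, Gata6, Cdx2 and Aqp4 lay on both sides of 1 with each of the Hoxb genes. Hoxb5 was detected in 18.0% of Gata6-positive and 20.7% of Gata6-negative cells, with a median odds ratio of 0.989, below 1 in 4 mice and above in 3. Gata4 with Gata6 had a median odds ratio of 1.24, above 1 in 5 mice. Cdx2 with Hoxb6 was at 1.02 and Aqp4 with Hoxb6 at 0.805, each above 1 in some mice and below in others. Only 28 kept cells (1.53%) held neither Cdx1 nor Cdx2, and their median of 2369.5 detected genes was far below that of all kept cells. The 106 cells with neither Gata4 nor Gata6 had a median of 5544 detected genes.

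Taken by level in place of detection, the division was deep for Onecut2 and shallow for Aqp4. Summed per mouse, Onecut2 stood at 109 ± 24.1 CPM in Gata4-positive and 11.2 ± 9.22 CPM in Gata4-negative cells and was higher in the former in 7 of 7 mice. Gkn3 stood at 340 ± 128 and 131 ± 127 CPM (7 of 7 mice), and Aqp4 at 307 ± 45.7 and 210 ± 27.8 CPM (7 of 7 mice). Cdx1 went the other way, with 157 ± 24.9 CPM in Gata4-positive and 209 ± 43.9 CPM in Gata4-negative cells, lower in the former in 7 of 7 mice. Gata6 (61.2 ± 3.79 and 57.7 ± 12.5 CPM) and Cdx2 (58.7 ± 9.41 and 64.7 ± 17.9 CPM) were not ordered alike in the mice. Hoxb7 stood at 1.72 ± 1.86 CPM in Gata4-positive and 29.4 ± 13.1 CPM in Gata4-negative cells. Divided by Hoxb detection, Aqp4 stood at 220 ± 28.9 CPM in cells with any of Hoxb5 to Hoxb7 and 300 ± 54.8 CPM in cells with none. Its level was lower in the former in 7 of 7 mice.

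The cells were then placed in 4 states by Gata4 and by any of Hoxb5, Hoxb6 and Hoxb7. Gata4 without a Hoxb gene was found in 1170 cells (63.7%), a Hoxb gene without Gata4 in 344 (18.7%), both in 127 (6.92%) and neither in 195 (10.6%). The median depth was 311219.5, 312875.5 and 307558 reads in the first 3 states and 251427 in cells with neither, which also had the fewest detected genes (median 7769 against 9700 for Gata4 alone). ISC markers led in 85.5% of Gata4-only and 89.2% of Hoxb-only cells, so both states were made up mostly of ISC-led cells.

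Cells with both kinds often held few reads of 1 of them. In the 127 cells the median was 11 Gata4 reads and 3 summed Hoxb reads, against 17 Gata4 reads in Gata4-only cells and 24.5 Hoxb reads in Hoxb-only cells. With at least 5 reads asked of each, 40 of the 127 cells remained, 2.18% of kept cells. Onecut2 was detected in 75.6% of the cells with both, nearer to the 90.3% of Gata4-only cells than to the 12.5% of Hoxb-only cells. Wells with more than 1 cell were not called, and their part in this state was not tested.

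By mouse the Gata4-only state held 53.8%, 60.0% and 66.0% of cells in the young mice and 43.4%, 61.8%, 74.6% and 75.4% in the aged mice. The Hoxb-only state held 23.8%, 24.9% and 16.8% in the young and 31.2%, 19.4%, 7.94% and 11.2% in the aged. The difference between the ages was 3.90 percentage points for Gata4-only (exact permutation p = 0.714) and -4.36 for Hoxb-only cells (exact permutation p = 0.543), both within the spread between mice. Both kinds together stayed between 3.17% and 10.8% in every mouse.

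**Figure D3:**
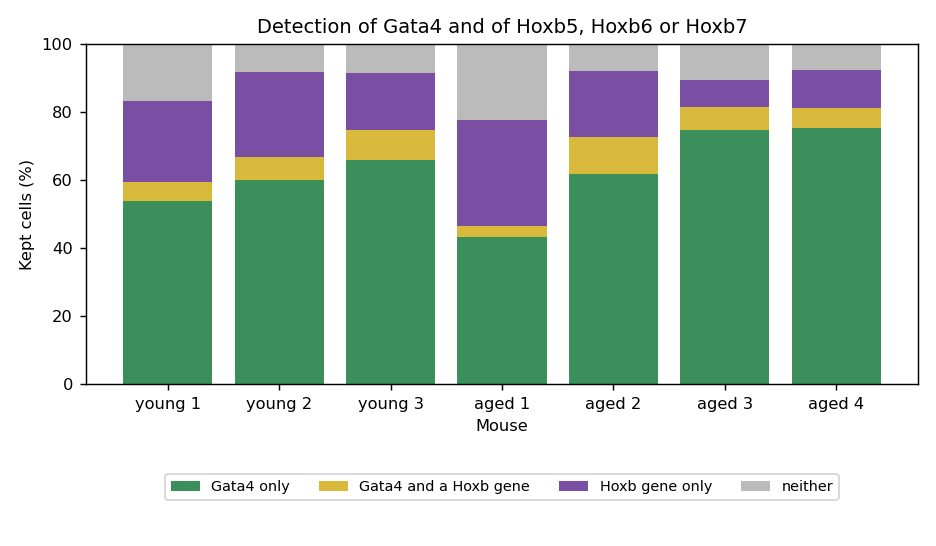
Share of kept cells (vertical axis, %) of each mouse (horizontal axis) with Gata4 only, with Gata4 and at least 1 of Hoxb5, Hoxb6 and Hoxb7, with a Hoxb gene only, and with neither. Gata4-only cells are fewest in aged mouse 1 (43.4%) and most in aged mouse 4 (75.4%), and Hoxb-only cells are most in aged mouse 1 (31.2%) and fewest in aged mouse 3 (7.94%).

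The more Hoxb genes a cell showed, the less often it showed Gata4. Gata4 was detected in 85.7% of the 1365 cells with no Hoxb gene, in 52.2% of the 138 cells with 1, in 20.8% of the 144 cells with 2 and in 13.2% of the 189 cells with 3. Onecut2 was detected in 82.4%, 50.0%, 22.2% and 20.1% over the same steps. Gkn3 was at 89.8%, 70.3%, 51.4% and 52.4%, and so was no lower with 3 Hoxb genes than with 2. In summed counts Gata4 was at 65.3, 29.1, 10.1 and 3.51 CPM and Gkn3 at 370, 176, 54.1 and 32.9 CPM over the same steps. The median depth was 303336, 297979.5, 301729 and 337142 reads over the same steps. The median number of detected genes was 9507, 8748, 8478.5 and 9467. These shares were not taken within bands of detected genes, and the part of depth in the steps was not tested. Some mice held few cells in a step, and the lowest and highest shares by mouse are wide accordingly (23.1% to 64.3% for Gata4 at 1 Hoxb gene).

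**Figure D4:**
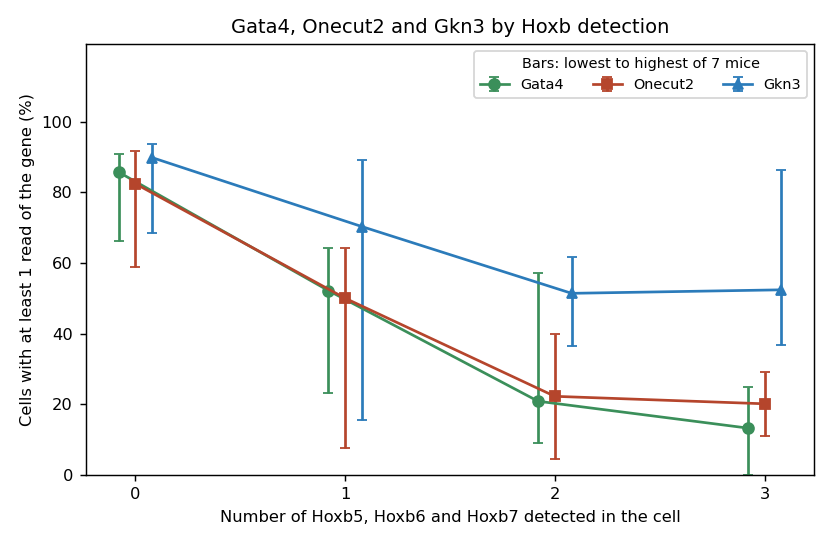
Share of cells with at least 1 read of Gata4, Onecut2 or Gkn3 (vertical axis, %) by the number of Hoxb5, Hoxb6 and Hoxb7 detected in the cell (horizontal axis). Points are shares over all kept cells and bars run from the lowest to the highest mouse. Gata4 runs from 85.7% with no Hoxb gene to 13.2% with all 3.

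The division held for most of the Hoxb cluster, weakening toward its anterior end. Of 10 Hoxb genes in the table, 8 were detected in at least 1% of kept cells. The more posterior Hoxb9 was detected in 16.9% of kept cells, in 3.62% of Gata4-positive and 48.8% of Gata4-negative cells, and Hoxb8 in 12.5%, 1.46% and 39.0%. Toward the anterior end the 2 shares came closer, with 4.55% and 26.5% for Hoxb4, 5.94% and 22.3% for Hoxb3 and 6.32% and 10.0% for Hoxb2. Hoxb1 was found in 0 cells, which allows a share of up to 0.163%, and Hoxb13, the most posterior of the cluster, in 3 cells. The long noncoding gene Gm53, which lies beyond Hoxb9, was detected in 4.09% and 53.4%, and the antisense gene Hoxb5os in 3.08% and 40.8%.

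**Figure D5:**
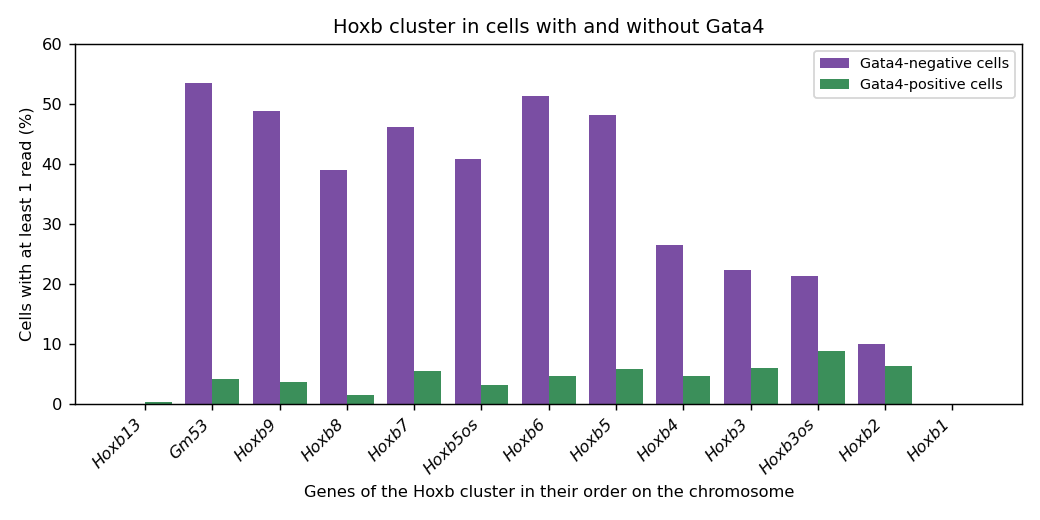
Share of Gata4-negative (purple) and Gata4-positive (green) cells with at least 1 read (vertical axis, %) for the genes of the Hoxb cluster in their order on the chromosome (horizontal axis). The 2 shares are far apart from Gm53 (53.4% and 4.09%) to Hoxb5 (48.2% and 5.86%) and near one another at Hoxb2 (10.0% and 6.32%).

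The other Hox clusters were almost silent. Of 11 Hoxa genes 4 passed 1% of kept cells, led by Hoxa3 at 5.56%, of 9 Hoxd genes only Hoxd4 did so, at 3.59%, and of 9 Hoxc genes none did, with the highest at 0.109%. In edgeR 0 of 5 Hoxa, 0 of 8 Hoxb and 0 of 1 Hoxd genes tested were called between the ages (1, 0 and 0 at an unadjusted p under 0.05, and 0 of each in DESeq2), with medians of 0.15, -0.24 and 0.64 on the log2 scale. Of the 8 Hoxb genes 1 was higher in the aged mice.

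Of 27 genes in the families of the members, 17 passed 1% of kept cells, and the most common that is no member was the water channel gene Aqp1, at 97.5%. Gata5 and Pdx1 are named after their values were seen. Gata5 was as common as Cdx2, at 89.4% of kept cells, and was detected in 92.6% of Gata4-positive and 81.6% of Gata4-negative cells. Pdx1, a homeobox factor of the duodenum and pancreas, was detected in 19.7% of kept cells, 26.8% of those with Gata4 and 2.41% of those without. Of 15 family genes tested, edgeR called 0 (2 at an unadjusted p under 0.05) and DESeq2 1, which was Aqp5, found in 1.74% of cells.

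Lists of genes of the proximal or the distal small intestine, not limited to 1 cell type, were read beside the members. Of 12 proximal genes edgeR called 0 (6 at an unadjusted p under 0.05, where 5.24% of all genes were), and the median log2 fold change was 1.31 with 10 of 12 higher in the aged mice. Of 12 distal genes it called 0 (2 at an unadjusted p under 0.05), with a median of 0.62 and 11 of 12 higher in the aged. The median of all genes tested was 0.01. Among its 177 calls in 20957 genes, DESeq2 called Slc40a1 (log2 fold change 1.57) and Rbp2 (1.92) of the proximal and Guca2a (1.82) of the distal list, which are named for these calls. In cells led by ISC markers the medians were 0.67 and 0.34. The summed level of 9 enterocyte markers was 1034, 822 and 970 CPM in the young mice and 761, 2050, 1272 and 2237 CPM in the aged mice. Apoa1, Apoa4, Fabp1, Lct and Ada are both enterocyte markers and proximal genes here, so this sum is not separate from the proximal list. The part of enterocytes in these medians was not tested. Without aged mouse 1 edgeR called 1 proximal gene, Fabp1 (log2 fold change 2.50, adjusted p = 0.0455).

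The share of positive cells was higher in Gata4-positive than in Gata4-negative cells for 12 of 12 proximal and 9 of 12 distal genes. The same count over all genes was not taken, so nothing particular to the lists is read from these counts. The 4 most common genes of each list are given here. Ada, which encodes adenosine deaminase, was detected in 56.7% of Gata4-positive and 32.3% of Gata4-negative cells, the fatty acid binding protein gene Fabp1 in 50.7% and 23.7%, Adh6a in 51.9% and 19.9% and the apolipoprotein gene Apoa1 in 47.6% and 38.6%. Of the distal list Osr2, a zinc finger factor, went the other way, with 63.5% and 83.7%, as did the less common Guca2a (29.1% and 41.2%) and Fabp6 (19.7% and 21.0%), which are named after their values were seen. Muc3 (71.9% and 65.9%), the bile acid receptor gene Nr1h4 (70.4% and 67.0%) and Mep1a (69.6% and 54.9%) were more common beside Gata4. These shares were not adjusted for depth. The median number of detected genes was 9700 in Gata4-only cells. Among Gata4-negative cells it was 8509 in Hoxb-only cells and 7769 in cells with neither.

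Gkn3 was then followed within Gata4-positive cells, a division chosen after the data were seen. There it stood at 435, 402 and 503 CPM in the young mice and at 104, 283, 318 and 333 CPM in the aged mice, so the ages did not overlap, as was the case for 5.83% of all genes tested in those cells. The log2 fold change was -0.75 (standard error 0.34, edgeR unadjusted p = 0.0530, adjusted p = 0.939), which did not pass the test. In Gata4-negative cells it was at 382, 47.2 and 85.9 CPM in the young mice and 38.6, 31.7, 207 and 125 CPM in the aged mice. There young mouse 1 alone stood apart and the ages overlapped. Over all Gkn3-positive cells the median level per cell was 262, 269 and 307 CPM in the young mice and 57.9, 157, 197 and 179 CPM in the aged. For Onecut2 the ages did not overlap on this measure either, with 119, 133 and 143 CPM in the young and 68.6, 108, 101 and 113 CPM in the aged. The other members overlapped between the ages. For this measure the share of all genes without overlap was not taken, and no test was run, so no difference between the ages is read from it. In counts summed over all kept cells the ages overlapped for both genes, with a log2 fold change of -0.04 for Onecut2.

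The promoter of Gkn3 is shown because the gene moved with Gata4 and Onecut2 from cell to cell. The 250 bases before its start in RefSeq (GRCm38.p6, chr6:87388936-87389185, minus strand) read as follows, with matches to the motifs in capitals.
Gkn3: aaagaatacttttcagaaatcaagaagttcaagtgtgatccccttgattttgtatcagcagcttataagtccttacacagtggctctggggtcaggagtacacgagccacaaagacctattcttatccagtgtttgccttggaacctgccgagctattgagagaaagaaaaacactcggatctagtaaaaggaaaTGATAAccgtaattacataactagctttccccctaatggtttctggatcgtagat
The GATA motif, searched as AGATAA or TGATAA on both strands, was found 1 time, beginning 55 bases before the start. A match to it was present in 16.5% of 32536 promoter windows of the same length. The Onecut motif, searched as ATTGAT on both strands, which shares bases with TGATAA where they overlap, was found 0 times here and in 6.6% of windows. A match is a description of the letters and shows no binding.

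The genes whose level per cell was most like that of each member were found by Pearson's correlation of log2(CPM + 1) within each mouse, averaged over the 7 mice, among genes detected in at least 10% of kept cells. Each mouse gave 160 to 376 cells, and cells share the library preparation and differ in depth, so the values are descriptions. For Gata4 they were Onecut2 (mean r = 0.70, 0.51 to 0.82 by mouse), Prap1 (0.62) and Aadac, an esterase of the endoplasmic reticulum (0.62), against a median of 0.13 over 14764 genes. The least alike were Bex1 (-0.62), Tceal7 (-0.60) and Bex4 (-0.58), which are X-linked genes of related families. Onecut2 had the same partners, with Gata4, Aadac (0.65) and Prap1 (0.65) at the top and Bex1 (-0.71), Tceal7 (-0.65) and Bex4 (-0.63) at the bottom.

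Gkn3 shared these partners in part. Among its nearest genes were Onecut2 (0.63) and Aadac (0.56), and Bex1 was again the least alike (-0.57). The Hoxb genes were nearest to their own cluster: Hoxb5 to Hoxb5os (0.70), Gm53 (0.63) and Hoxb6 (0.62), Hoxb6 to Gm53 (0.74), Hoxb9 (0.70) and Hoxb7 (0.66), and Hoxb7 to Gm53 (0.71), Hoxb6 (0.66) and Hoxb9 (0.66). Their least alike genes were Gata4 (-0.46 with Hoxb5, -0.49 with Hoxb6, -0.47 with Hoxb7), Aadac (-0.45, -0.48 and -0.48), with Prap1 for Hoxb5 and Hoxb6 (-0.46 for each) and Onecut2 for Hoxb7 (-0.46).

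The partners of the other members were of other kinds. Aqp4 was nearest to Pabpc1 (0.55), Olfm4 (0.55), a marker of ISCs, and 9130208D14Rik (0.54), and among the least alike was Muc2 (-0.24), the mucin of goblet cells. Its correlation with the score of the ISC list was 0.57 on average, the highest of the 10 members. It was 0.36 for Cdx1 and 0.01 for Hoxb5 (-0.35 to 0.21 by mouse). The correlation of Aqp4 with the number of detected genes was also the highest of the 10 members, at 0.47. The values for the ISC list were not adjusted for that number. Cdx1 was nearest to Cldn3 (0.47), a claudin, Ppp1r1b (0.47) and Psap (0.46). Gata6 and Cdx2 reached only 0.37 (with Gm45912) and 0.35 (with Prrc2a) and were least like alpha-defensin genes of Paneth cells, such as Defa2 for Gata6 (-0.14) and Defa17 for Cdx2 (-0.20). Both of these highest values were lower, at 0.18 and 0.19, once the number of detected genes was held constant.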

How the data were processed

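The deposited values are raw counts of reads, 1 column for each cell, made by the authors from single-end reads aligned to GRCm38. The submitters' processing notes name HISAT2 and HTSeq; their versions and the strand setting of the counting are not given. Bracketed cell names in the sample titles tied each column to a mouse. Symbols, positions and exon lengths came from GENCODE M21 (55230 of 55471 gene IDs matched; the other 241 held 0.00278% of reads), and the Gkn3 promoter from RefSeq. Counts of cells with 1000 or more detected genes were summed per mouse and tested with edgeR 4.0.16 (quasi-likelihood, TMM, filterByExpr, Benjamini-Hochberg threshold 0.05); DESeq2 1.42.0 and limma 3.58.1 (voom) were alternatives. Shares of positive cells were compared by exact permutation over 35 divisions of the mice. The model fit was tested on simulated data, and the functions for shares on known answers. Intervals (95% Clopper-Pearson) and the limit for 0 positive cells (3 counts) cover counting error only, and reads carry no molecular identifiers. Wells with more than 1 cell were not sought. Genes named were the 10 members, the 3 most and 3 least alike genes of each, of which the text gives a selection (1 of them is not reported here), up to 4 genes of each list by share of positive cells, and overlapping or neighbouring genes. The members and lists were chosen with earlier results of these data known. Alternatives covered tools, scalings, filters, cell sets, thresholds, lanes (inferred from the LR code in each title), the replicate number as a block and each mouse left out.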

Additional observations from a re-analysis of the deposited data

How the results depend on the processing

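No setting called any of the 10 genes: over 17 alternative fits the lowest adjusted p was 0.636 in edgeR, for Gkn3 with lane as a block. The lane block entered young mouse 2 once for each of its lanes, which are not independent, and held no cells of young mouse 3 or aged mouse 4. Genes called overall numbered 177 in DESeq2, 2 in limma voom, 22 with no filter on low counts, 2 in cells led by ISC markers, 15 after thinning, 1 with lane as a block, and 0 to 8 with 1 mouse left out (8 without aged mouse 1, 1 without young mouse 1 or aged mouse 4). The replicate numbers did not pair the mice (correlations of deviations -0.0159, 0.1066 and -0.1095), and the replicate block called 0 genes.

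Directions of values that missed the test turned as follows, and the cause was not tested. Log2 fold changes with the replicate block and the lane block were -0.13 and -0.0452 for Gata4. After thinning they were 0.0148 for Gata6, -0.0471 for Cdx1, 0.11 for Hoxb6 and 0.21 for Hoxb7. In Gata4-positive cells, a setting added after seeing the data, they were -0.0705 for Cdx1, 0.0229 for Hoxb5, 0.34 for Hoxb6, 0.36 for Hoxb7 and -0.03 for Gata4. With 1 mouse left out they ranged from -0.10 to 0.22 for Gata4, -0.11 to 0.0232 for Gata6, -0.0651 to 0.19 for Cdx1, -0.25 to 0.21 for Onecut2, -0.50 to 0.27 for Hoxb6 and -0.71 to 0.14 for Hoxb7.

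Differences in share (aged minus young, percentage points) with the replicate block were -0.0809 for Gata4, -0.452 for Cdx2, -1.14 for Onecut2 and 0.781 for Hoxb7. For shares this block is the same as leaving out aged mouse 4, which has no young mouse of its number. After thinning they were 2.045 for Gata6 and 0.112 for Cdx1. At 10 CPM or more they were 1.17 for Gata6, -0.286 for Cdx2 and 0.0479 for Hoxb7, and at 5 reads or more -2.72 for Cdx2 and -0.73 for Aqp4. With no cell left out they were 3.67 for Gata6, 2.78 for Cdx1 and 1.67 for Gkn3. They were 0.658 for Gata6 in cells led by ISC markers and -0.143 for Cdx2 within lanes. In Gata4-positive cells they were 0.392 for Gata6, -0.393 for Onecut2, 0.442 for Hoxb5 and -0.384 for Aqp4. With 1 mouse left out the ranges were -0.303 to 11.4 for Gata4, -2.12 to 2.26 for Gata6, -4.04 to 2.37 for Cdx2, -1.14 to 12.4 for Onecut2, -4.49 to 1.33 for Hoxb7, -5.60 to 5.94 for Gkn3 and -0.542 to 0.83 for Aqp4.

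The 9 pairs below 1 in every mouse numbered 9 after thinning and with any mouse left out. Pairs above 1 in every mouse numbered 18 without bands of detected genes, 6 after thinning and 16 at 5 reads or more. The highest correlations of Gata6 and Cdx2 were 0.175 and 0.187 with the number of detected genes held constant.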

Other observations

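The genes least and most like Gata4 from cell to cell divided the same states. Bex1 was detected in 24.6% of cells with Gata4 and no Hoxb gene and in 96.5% of cells with a Hoxb gene and no Gata4, at 12.7 and 245 CPM. Bex4 was detected in 9.32% and 87.2%, and Tceal7 in 12.2% and 87.8%. Aadac went the other way, with 95.2% and 33.7% of cells and 294 and 23.4 CPM, as did Prap1, with 97.9% and 49.4% of cells and 340 and 25.7 CPM. These genes were chosen for their likeness to members in the same cells, so the shares are a description.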
